A study of Astyanax mexicanus with 6 samples.

Results

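The regions described here are stretches of liver chromatin that were open in the surface form and in the Tinaja cave form of Astyanax mexicanus and had no open-chromatin peak in the Pachon cave form. Overlapping or touching peaks of the 3 lists were joined into union regions. Members were chosen by the presence or absence of peaks: a region was a member when it lay on 1 of the 25 numbered chromosomes, held at least 1 Surface peak and at least 1 Tinaja peak, and held no Pachon peak. This gave 4914 members among 75330 chromosomal regions, of 110214 regions in all. The same pattern on unplaced sequences, 2374 regions, was not included. Because presence and absence made the choice, their number and their lack of Pachon peaks are descriptions and not tested results.

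Chromatin that is open to enzymes marks DNA that is not tightly wrapped around histones. It is found at promoters, where transcription starts, and at distal elements such as enhancers, where transcription factors bind, and much of the difference between cell types lies in the distal elements. The liver controls the storage and release of fat and sugar, and cave forms of this fish are known for large fat stores and for surviving long periods without food. ATAC-seq reads open chromatin with the transposase Tn5, which cuts accessible DNA and leaves sequencing adapters behind. A peak is a stretch where such fragments pile up above the local background.

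The groups were livers of Surface fish, of Pachon cave fish and of Tinaja cave fish, with 2 samples per form by the labels and about 70000 nuclei per reaction. The sources used here do not give the age, sex, feeding state or number of fish per sample. Each form had 1 peak list, with 50924 chromosomal peaks for Surface, 50115 for Pachon and 58238 for Tinaja, and there was no spread between replicates against which to test any difference between forms. All comparisons below are therefore between these lists. Read depth is unknown from the lists, and a list from a deeper library can hold more or wider peaks. The narrowest peak measured 212 bp in the Surface list, 221 bp in that of Pachon and 226 bp in that of Tinaja. In whole liver, a smaller number of cells of a type that holds a peak and a peak that is weaker in every cell cannot be told apart. No annotation of the genome build of the lists was used, so members carry no gene names and the liver identity of the samples was not checked against marker genes.

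A minority of the regions shared by Surface and Tinaja lacked Pachon. Of 37543 chromosomal regions with peaks in both lists, 4914 had no Pachon peak, which is 13.1% (Wilson 95% interval 12.8 to 13.4, for counting error only). This share is the background of the rule itself. The same rule with the forms exchanged gave 19.2% for regions of both caves that lacked Surface (7768 of 40397) and 8.02% for regions of Surface and Pachon that lacked Tinaja (2845 of 35474). Members were 1.73 times as numerous as the regions missing from Tinaja, but 0.814 times as numerous when each list kept the same number of widest peaks. That setting removes peaks mostly from the longer Tinaja list and none from the Pachon list, so it favours a lower ratio by its design. Members were 0.633 times as numerous as the regions missing from Surface, and 0.546 times under that setting. Which of Pachon and Tinaja lacked more regions thus differed between these settings, whereas Surface lacked most under both.

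Members made up a modest part of the open chromatin of the forms that held them. They contained 4952 Surface peaks, 9.72% of the chromosomal peaks of that list, and 4954 Tinaja peaks, 8.51% of that list. The covered length was 2.43 Mb in Surface, 7.06% of its chromosomal total, and 2.30 Mb in Tinaja, 6.17% of its total. Nearly every member was simple, since 4841 of the 4914 held exactly 1 peak of each list. Regions of all 3 forms were also mostly simple, with 33397 Surface peaks and 33595 Tinaja peaks in 32629 regions.

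**Figure D1:**
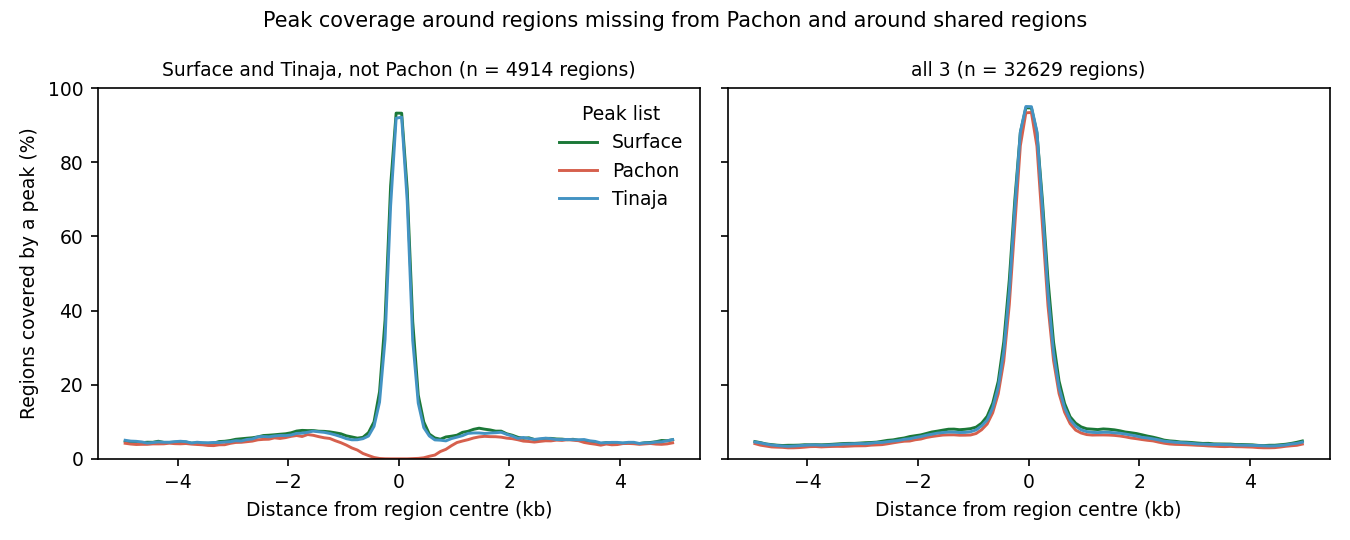
Percentage of regions covered by a peak of each list (vertical axis) against distance from the region centre in kb (horizontal axis), for the 4914 regions missing from Pachon on the left and the 32629 regions of all 3 lists on the right. Surface and Tinaja covered 93.2% and 92.0% of members at the centre and Pachon 0% by the rule, and the 3 lines lie near each other beyond 2 kb.

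The members were narrow compared with regions of all 3 forms. The median covered length was 415.5 bp in Surface and 382 bp in Tinaja, with ranges of 212 to 4913 bp and 226 to 8090 bp. In the 32629 regions of all 3 forms the corresponding medians were 666 bp in Surface and 648 bp in Tinaja. The other classes of 2 lists were also narrow, with medians of 401 bp in Pachon and 446 bp in Tinaja for regions missing from Surface, and 450 bp in Surface and 374 bp in Pachon for those missing from Tinaja. Members and the other regions of exactly 2 lists were thus of similar width. The widths of member peaks were not smoothly spread. Surface widths were most frequent at the lower end of the range and had a second, smaller concentration, with 269 members from 420 to 439 bp against 207 from 360 to 379 bp and 114 from 480 to 499 bp. Tinaja widths had a weaker rise at a similar place. They numbered 244 from 400 to 419 bp and 231 from 420 to 439 bp. The bins around these held 237 from 360 to 379 bp, 207 from 380 to 399 bp and 172 from 440 to 459 bp. These counts were made for members only, so whether they are particular to them or a feature of the whole lists is not known.

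The narrower the region, the more often Pachon lacked it. Where the list with less coverage covered under 300 bp, 33.6% of Surface and Tinaja regions had no Pachon peak (2045 of 6093, Wilson 95% interval 32.4 to 34.8). The share was 23.6% from 300 to under 400 bp, 12.8% from 400 to under 500 bp and 5.77% from 500 to under 750 bp. Above that width it levelled off, with 2.38% from 750 to under 1000 bp, 2.41% from 1000 to under 1500 bp and 2.62% from 1500 to under 2000 bp, whose Wilson intervals overlap. Of the 714 widest regions, at least 2000 bp in both lists, 7 lacked Pachon (0.980%, interval 0.476 to 2.01).

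The regions that Surface or Tinaja lacked were also mostly narrow, but the share declined with width to a different extent for each list. In the narrowest class the share was 40.2% for Surface as the lacking list and 19.5% for Tinaja. From 750 to under 1000 bp the values were 7.45% (interval 6.75 to 8.22) for Surface and 1.94% (interval 1.58 to 2.38) for Tinaja, beside 2.38% (interval 1.99 to 2.85) for Pachon. Among regions of at least 2000 bp, Surface lacked 40 of 748, which is 5.35% (interval 3.95 to 7.20), and Tinaja 13 of 661, which is 1.97% (interval 1.15 to 3.34). From 750 to under 2000 bp the shares for Pachon and Tinaja were close to each other, and the ratio of members to the regions missing from Tinaja went from 1.73 over all widths to 1.28 among regions of at least 1000 bp (129 against 101), 1.09 among those of at least 1500 bp (38 against 35) and 0.538 among those of at least 2000 bp (7 against 13).

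**Figure D2:**
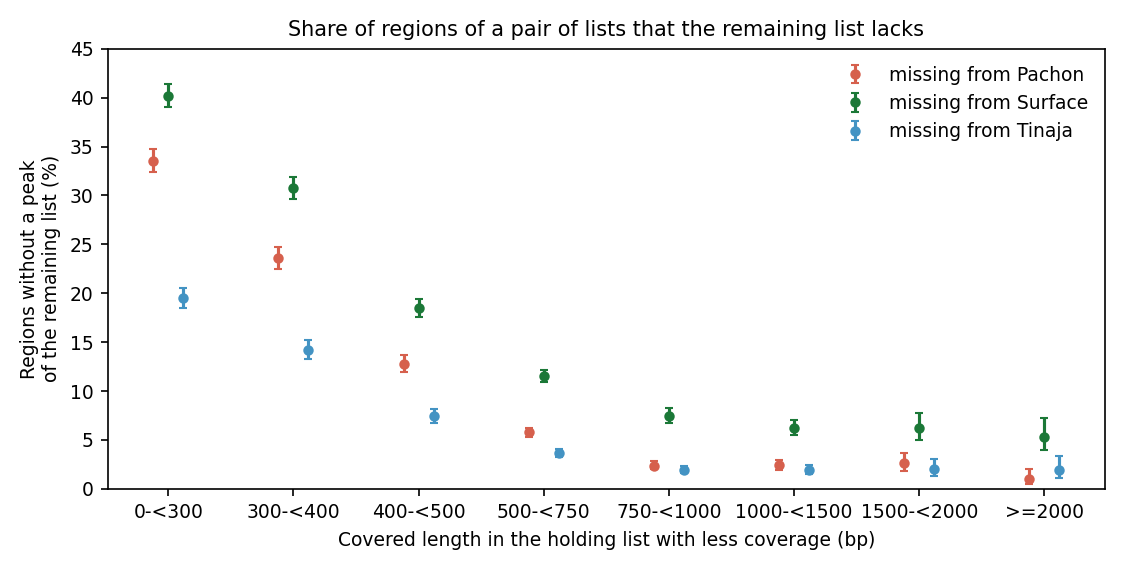
Percentage of regions held by a pair of lists that have no peak of the remaining list (vertical axis) by the covered length in bp in the holding list with less coverage (horizontal axis), for each list as the lacking one. Points are shares and bars are Wilson 95% intervals for counting error. For Pachon the share goes from 33.6% under 300 bp to 2.38% at 750 to under 1000 bp and stays near that level up to 2000 bp.

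Surface and Tinaja peaks within a member were similar in width and place. Their closeness in place follows largely from the rule, since without a Pachon peak a Surface and a Tinaja peak must overlap or touch. In regions of all 3 forms a Pachon peak can join them instead. No base was common to both lists in 32 such regions and in 1 member. Comparisons of place and overlap between members and these regions are therefore not like for like. The median log2 ratio of Tinaja over Surface covered length was -0.05, a ratio of 0.968, and became 0.0193 with equal numbers of widest peaks, so its sign is not firm. In regions of all 3 forms the median log2 ratio was -0.01. The Surface peak was the wider one in 2660 members (54.1%). The median distance between the centres of both peaks was 59 bp in members and 53 bp in regions of all 3 forms. The bases covered in both lists made up at least 50% of the wider coverage in 3845 members (78.2%), against 88.6% of regions of all 3 forms. Members were narrower, and within width classes this order did not always hold. Under 300 bp the shares were 71.4% of members and 64.8% of regions of all 3 forms. From 300 to under 400 bp they were 78.3% and 78.2%, from 400 to under 500 bp 86.8% and 89.3%, and from 500 to under 750 bp 85.6% and 94.2%.

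Large differences in width between Surface and Tinaja were compared with their frequency over all 37543 regions held by both. Surface coverage was at least 2 times Tinaja coverage in 400 members, 8.14% (Wilson 95% interval 7.41 to 8.94), against a background of 4.61%. Tinaja coverage was at least 2 times Surface coverage in 281 members, 5.72% (interval 5.10 to 6.40), against a background of 5.09%. Narrow regions differ more in width, so the same shares were set side by side within width classes.

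Within width classes the comparison differed from class to class. Under 300 bp, Surface was at least 2 times wider in 10.5% of 2045 members and in 10.5% of 4048 regions of all 3 forms, but Tinaja was in 8.70% of members and in 19.9% of regions of all 3 forms. From 300 to under 400 bp the shares for Surface were 9.10% and 8.04%, and those for Tinaja 4.59% and 9.12%. In these narrow classes a much wider Tinaja peak was less frequent in members than in regions of all 3 forms, while the shares for Surface were close. From 400 to under 500 bp the shares were 4.88% and 4.83% for Surface and 2.57% and 3.36% for Tinaja, which are close. Wider members went the other way, with shares from 500 to under 750 bp of 4.07% in members and 2.31% in regions of all 3 forms for Surface, and of 3.33% and 1.92% for Tinaja. From 750 bp upwards the members with such a difference numbered at most 3 per class and direction. The width classes fix only the narrower coverage. A region with a much wider peak is longer and has more room to meet a Pachon peak, which would exclude it from the members. How far the rule itself shaped these shares, and whether they differ beyond the variation between fish, was not tested.

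**Figure D3:**
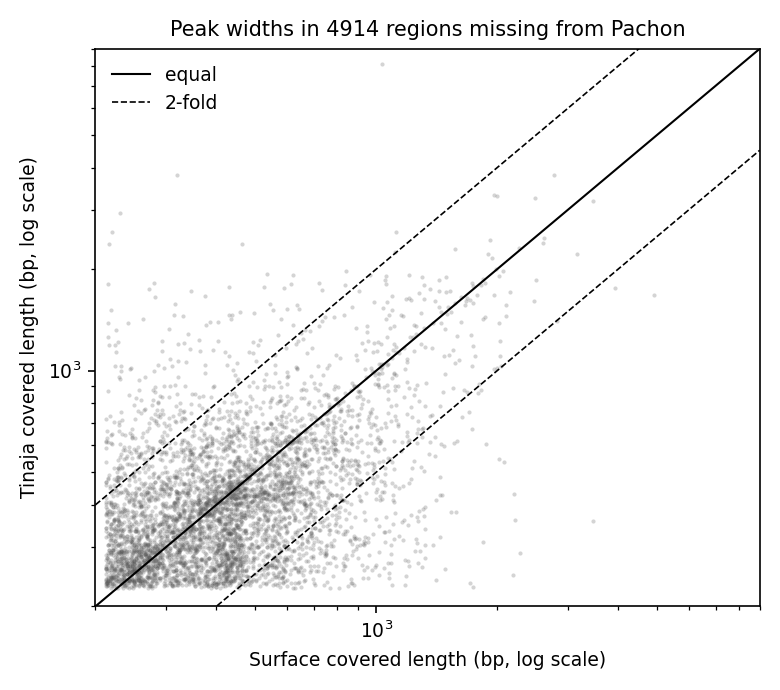
Covered length in Tinaja (vertical axis, bp, log scale) against covered length in Surface (horizontal axis, bp, log scale) for the 4914 regions missing from Pachon, 1 point per region. The solid line marks equal length and the dashed lines a 2-fold difference. Most points lie between the dashed lines, with 400 beyond the Surface side and 281 beyond the Tinaja side.

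Few members lay close to the edge of the rule. The smallest gap to a Pachon peak was 18 bp, at positions 25691992 to 25692452 of chromosome 23, where Surface covered 331 bp, Tinaja 400 bp and the neighbouring Pachon peak 731 bp. The next gap was 33 bp, at 10288968 to 10289407 of chromosome 1. Just outside the rule, a region of all 3 forms at 3866216 to 3867357 of chromosome 8 had a Pachon peak of 491 bp that shared 2 bp with the other lists, and one at 10401473 to 10402209 of chromosome 25 shared 13 bp. In all, 23 members had a Pachon peak within 200 bp, and 114 of the regions of all 3 forms (0.349%) had a Pachon overlap of at most 200 bp.

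Beyond the edge, Pachon peaks were typically several kb away. The median gap from a member to the nearest Pachon peak was 4300 bp, with 25% of members within 1515 bp and 75% within 9221 bp. A Pachon peak lay within 1000 bp of 757 members (15.4%) and within 10000 bp of 3806 (77.5%), and 55 members (1.12%) had none within 50000 bp. For regions missing from Surface the median gap to a Surface peak was 7104.5 bp, and 6.41% had none within 50000 bp. For regions missing from Tinaja the median gap to a Tinaja peak was 3683 bp, and 0.844% had none within 50000 bp. Gaps of members were thus close to those of the regions missing from Tinaja, and regions missing from Surface stood farther from the list that lacked them. A longer list places its peaks closer together, so the gaps also depend on list length. The Surface list, with the largest gaps, was slightly longer than the Pachon list (50924 against 50115 chromosomal peaks), and the Tinaja list was the longest (58238). The part of list length in the gaps was not tested. Wide members were not nearer to Pachon peaks than narrow ones, with a median gap of 4057 bp under 300 bp of covered length and 5270 bp for the 129 members of at least 1000 bp.

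**Figure D4:**
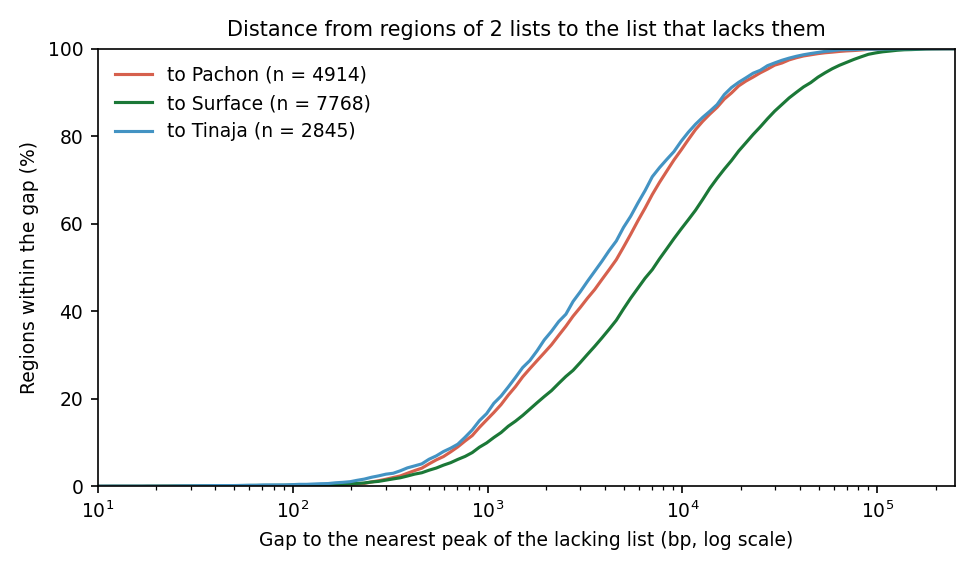
Cumulative percentage of regions (vertical axis) against the gap in bp to the nearest peak of the list that lacks them (horizontal axis, log scale), for regions missing from Pachon, from Surface and from Tinaja. The medians are 4300, 7104.5 and 3683 bp in that order, and the curve for Surface lies to the right of the others over most of its course.

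Farther out, the surroundings of members were not poor in Pachon peaks. At 2 to 5 kb from the centre of a member, Pachon peaks covered 4.37% of positions, against 3.64% at the same distance from regions of all 3 forms and 3.39% of all chromosomal bases up to the last peak of each chromosome. The values for Surface were 4.94%, 4.36% and 3.71%, and for Tinaja 4.92%, 4.15% and 4.00%. At this distance all 3 lists were thus denser around members than over the chromosomes as a whole. Around regions missing from Tinaja, Tinaja peaks covered 5.36%, also above the value for Tinaja over the chromosomes. Around regions missing from Surface, Surface peaks covered 3.57%, below the value for Surface over the chromosomes. Between 1 and 2 kb from the centre, coverage was lower around members than around regions of all 3 forms. The values were 5.65% and 6.18% for Pachon, 7.40% and 7.61% for Surface, and 6.80% and 6.90% for Tinaja. The rule keeps Pachon peaks out of a member, so Pachon coverage nearest to the centre is lowered by the choice of members. Regions of all 3 forms were also longer, with a median length of 789 bp against 496 bp for members. Those that reach past 1 kb from their centre count with their own peaks at this distance. How much this adds for each list was not tested.

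Shared peaks beside a member were narrower than shared peaks elsewhere in all 3 lists, and the width of Pachon relative to the other forms differed little. Widths in regions that are not members were not used by the rule, and regions of all 3 forms with exactly 1 peak of each list were taken for this comparison. In the 2386 such regions within 5 kb of a member, the median width was 558 bp in Pachon, 631 bp in Surface and 580 bp in Tinaja, against 591, 647 and 631 bp in the 28203 farther away. Near regions missing from Surface the medians in that order were 554, 618 and 609 bp, against 592, 648 and 630 bp farther away. Near regions missing from Tinaja they were 563, 624 and 604 bp, against 590, 647 and 629 bp. Narrower shared peaks nearby were thus not particular to members. The median ratio of Pachon to Surface width was 0.947 near members and 0.955 farther away. The median ratio of Pachon to Tinaja width was 0.984 near members and 0.971 farther away. Pachon had the narrowest of the 3 peaks in 937 regions near members (39.3%) and in 41.6% of those farther away. The direction of the difference in relative width thus depended on the form that Pachon was set against, also within the width classes under 1000 bp. In the class of at least 1000 bp, with 240 regions near members, both median log2 ratios were lower near members. They were -0.0881 against -0.0567 for Pachon over Surface, and -0.0359 against -0.0345 for Pachon over Tinaja.

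The nearest Pachon peak of a member was usually one that all forms shared. It belonged to a region of all 3 forms for 3467 members (70.6%), to a region of both caves for 686 (14.0%), to a Pachon-only region for 466 (9.48%) and to a region of Surface and Pachon for 295. Over all chromosomal Pachon peaks the first 3 of these shares were 67.4%, 15.7% and 11.2%. Pachon-only peaks were thus no more frequent as the nearest peak than in the list as a whole.

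Broad members, open over long stretches in Surface and Tinaja, were few. There were 129 members (2.63%) with at least 1000 bp covered in both lists, on all 25 chromosomes, from 1 to 10 per chromosome, with the highest number on chromosome 12. Their median covered length was 1451 bp in Surface and 1493 bp in Tinaja, and the bases covered in both made up a median of 81.6% of the wider coverage. No Pachon peak lay within 1000 bp of 121 of them, within 5000 bp of 68 and within 10000 bp of 38. A Pachon peak thus lay within 1000 bp of 6.20% of them, against 15.4% of all members. Of all members, 54.8% had one within 5000 bp and 77.5% within 10000 bp. Of the 5674 Surface and Tinaja regions with at least 1000 bp covered in both lists, 2.27% lacked Pachon, against 13.1% over all widths.

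The 10 members ranked highest by the covered length in the list with less of it covered at least 1980 bp in both lists. This ranks width and not signal, which the lists do not give. The first was at positions 10902063 to 10905518 of chromosome 22, where a Surface peak of 3456 bp contained a Tinaja peak of 3175 bp. The nearest Pachon peak was 9681 bp away and belonged to a shared region with a Surface peak of 798 bp, a Pachon peak of 1030 bp and a Tinaja peak of 1151 bp. On the other side, the nearest region of all 3 forms was 49652 bp away and broad in each, with 6024 bp covered by Surface, 5665 bp by Pachon and 5952 bp by Tinaja. Pachon peaks at this locus were thus of ordinary to large width on both sides of the missing one.

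On chromosome 3, positions 67949725 to 67953532, a Tinaja peak of 3808 bp contained a Surface peak of 2764 bp, with Pachon 8364 bp away. On chromosome 6, positions 45217420 to 45220669, Tinaja covered 3250 bp and Surface 2479 bp. That member was the most isolated of the 10, since the nearest Pachon peak was 52320 bp away. On chromosome 2, positions 17218535 to 17221457, a pair of Surface peaks covered 2621 bp and 1 Tinaja peak 2465 bp, and Pachon was 18049 bp away. On chromosome 20, positions 34262758 to 34265437, 1 Surface peak of 2602 bp faced 2 Tinaja peaks of 2382 bp in all, with Pachon 10647 bp away. In both of these, 1 list split what the other joined, and over 80% of the wider coverage was still common to both (82.5% and 88.5%).

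Chromosome 7 held 3 of the 10. At positions 16873535 to 16875874, Surface covered 2269 bp and Tinaja 2307 bp, of which 2236 bp were shared, and Pachon was 7188 bp away. At 29541391 to 29543395, Surface covered 1980 bp and Tinaja 2000 bp, with 1975 bp in common. Of the 10, this member was the closest match between the forms and also the closest to Pachon, whose peak of 702 bp lay 692 bp away in a shared region that measured 1072 bp in Surface and 518 bp in Tinaja. At 5226698 to 5229996, the Tinaja peak of 3299 bp was wider than the Surface peak of 1993 bp.

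The remaining pair of these 10 members lay on chromosomes 8 and 14. On chromosome 8, positions 11521776 to 11524940, Surface covered 3165 bp and Tinaja 2214 bp, and Pachon was 2858 bp away. On chromosome 14, positions 31146410 to 31148480, the widths were 2071 bp and 1980 bp, of which 1980 bp were shared. The nearest Pachon peak there, 6940 bp away, was itself wide at 1942 bp, in a shared region of 3319 bp in Surface and 2347 bp in Tinaja.

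The members farthest from any Pachon peak were narrow. The largest gap was 136517 bp, at positions 17639846 to 17640163 of chromosome 23, where Surface covered 318 bp and Tinaja 262 bp. Next was a gap of 109996 bp at 27846520 to 27847194 of chromosome 16, with 644 bp in Surface and 259 bp in Tinaja. Another member stood beside it on chromosome 16 at 27843397 to 27843873, with 398 and 289 bp. The other 2 of the 5 farthest were at 5709904 to 5710241 of chromosome 21, with 274 and 279 bp, and at 2030911 to 2031372 of chromosome 3, with 432 and 236 bp. For all 5, the nearest Pachon peak belonged to a region of both caves, as it did for 14.0% of all members. The pair on chromosome 16 had the same nearest Pachon peak, of 584 bp, so these are not 5 separate cases. The member on chromosome 23 was the only one within a stretch of 17 consecutive regions without Pachon, of which 11 were Tinaja-only and 5 Surface-only.

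A few members were open over very different lengths in the forms that held them. Among members with at least 300 bp in both lists, the largest excess of Tinaja was on chromosome 25 at 5108938 to 5112741, with 3804 bp in Tinaja and 319 bp in Surface, a ratio of 11.9. At 3072861 to 3080950 of chromosome 4 Tinaja covered 8090 bp in 1 peak, the widest of any member, and Surface 1031 bp in 2 peaks. The other 3 members with the largest Tinaja excess, on chromosomes 22, 18 and 6, had ratios of 4.97 to 5.14. In the opposite direction, Surface covered 3461 bp and Tinaja 357 bp at 5846924 to 5850384 of chromosome 14, a ratio of 9.69. The next, on chromosomes 2, 16, 21 and 17, had ratios of 6.13, 5.92, 5.11 and 4.53. In all 10 of these the narrower coverage lay wholly inside the wider one.

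Members occurred on all chromosomes, at rates that differed between them. The share of Surface and Tinaja regions that lacked Pachon ranged from 11.1% on chromosome 8 (133 of 1197) to 16.1% on chromosome 12 (182 of 1132). Wilson intervals lay above the overall 13.1% on chromosomes 6, 12 and 15 and below it on chromosomes 3, 8 and 24. Neighbouring regions are not independent, which makes these intervals too narrow. Set against the number expected from the widths of the regions on each chromosome, the observed number gave ratios from 0.825 on chromosome 24 to 1.28 on chromosome 11 (79 members against 61.6), and 1.24 on chromosome 12. Surface as the lacking list had a higher share than Pachon on 24 of 25 chromosomes, and Tinaja a lower one on all 25. Along the chromosomes, divided into 10 equal parts up to the last peak, the share stayed between 12.03% and 13.9%.

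**Figure D5:**
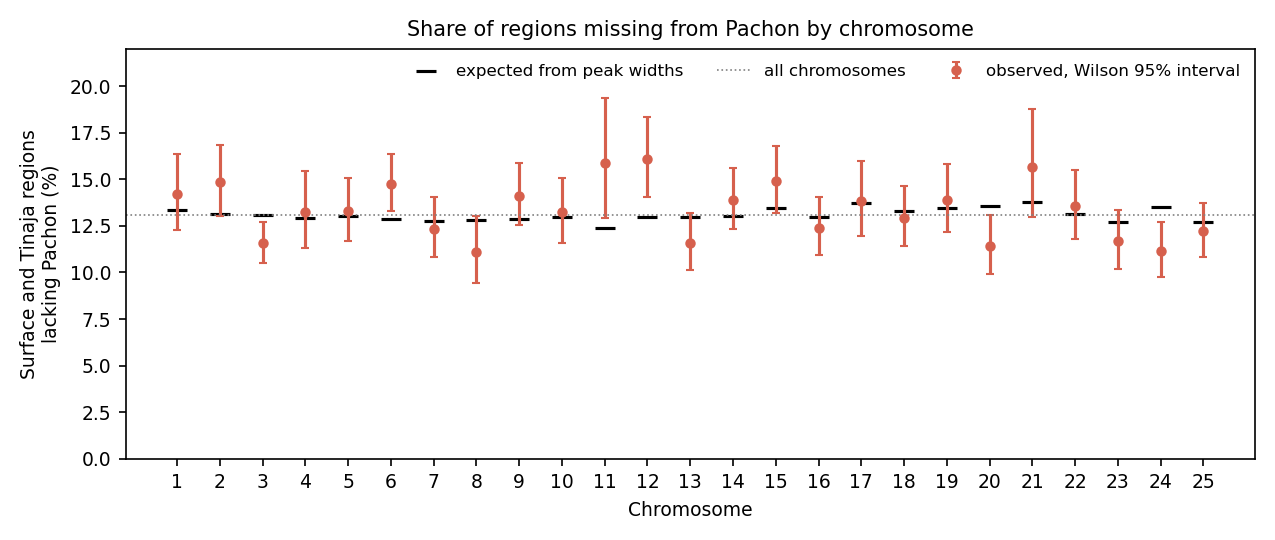
Percentage of regions held by Surface and Tinaja that lack a Pachon peak (vertical axis) on each of the 25 chromosomes (horizontal axis), with Wilson 95% intervals as bars. Short black lines give the share expected from the widths of the regions and the dotted line the share over all chromosomes. Observed shares lie between 11.1% and 16.1%.

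Most members had no other member directly beside them. Neighbours of other classes that lacked Pachon occurred at shares near those over all chromosomal regions. Of 9826 neighbouring regions on either side of a member, 4526 (46.1%) were regions of all 3 forms, which made up 43.3% of all chromosomal regions. Another member was the neighbour in 806 cases (8.20%), against 6.52% of all chromosomal regions and 6.94% of the neighbours of regions of all 3 forms. Surface-only regions made up 13.5% of the neighbours of members and Tinaja-only regions 14.0%, against 12.9% and 15.8% of all chromosomal regions. Regions missing from Surface had one of their own kind as neighbour in 15.5% of cases, against 10.3% of all regions, and those missing from Tinaja in 5.45%, against 3.78%. Of the members, 4144 stood without another member beside them and 770 (15.7%) were in runs of 2 or more. The members fell into 4355 stretches of consecutive regions without Pachon, and 2073 members (42.2%) were alone in theirs. The others shared their stretch with at least 1 further region without Pachon. No such share was computed over all chromosomal regions, so whether 42.2% is particular to members is not known.

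The longest run of members numbered 5, on chromosome 9 at positions 24938567 to 24966803, over 28237 bp. Each of these covered 419 to 717 bp in Surface and 274 to 538 bp in Tinaja, and no region of another class lay between them. The 4 runs of 4 members were at 4497388 to 4512650 of chromosome 6, 23366907 to 23372587 of chromosome 9, 16780494 to 16798489 of chromosome 10 and 35061617 to 35069999 of chromosome 25. The run on chromosome 25 held wide Surface peaks, with 3148 bp in all against 1590 bp in Tinaja. That on chromosome 6 was the farthest from Pachon, with gaps of 13192 to 27933 bp. The longest run was 6 for regions missing from Surface and 3 for those missing from Tinaja, in the order of their numbers.

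Windows of 1 Mb held a median of 5 members, and 922 of 944 windows with any region held at least 1. The highest number was 19, in the window of chromosome 14 from 20000001 to 21000000, among 78 regions of Surface and Tinaja (24.4%). Of 4 windows with 18 members, those with the highest shares were on chromosome 14 from 37000001 to 38000000, with 18 of 55 (32.7%), and on chromosome 15 from 11000001 to 12000000, with 18 of 64 (28.1%). Pachon was not absent from these windows, which held 92, 51 and 61 regions with a Pachon peak.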

How the data were processed

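Per the submitters' processing notes, bcl2fastq 2.20, Bowtie2, SAMtools and MACS2 were used. The sources used here give no settings, peak threshold, Tn5 offset or genome build, and do not say whether replicates were pooled. The deposited lists hold the sequence, start and end of each peak, other columns being dots, and the deposited score was 0 for every peak. The lists are recorded under replicate 1 of each form.

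Coordinates are those of the deposited lists, written 1-based. Peaks that overlapped or touched were merged, and covered length is the bp under the peaks of 1 list within a region. The gene table at hand is for the AstMex3 assembly, to which the lists could not be tied, so gene positions, gene lists, motifs and sequences were not analysed here. Expected numbers per chromosome came from the overall share in each width class.

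The members and lists were chosen with earlier results of these data known. The regions named are the 10 with the greatest covered length in the list with less of it, the 5 farthest from Pachon, the 5 with the largest width ratio in each direction (at least 300 bp in both), runs of at least 4, and the 3 windows richest in members, ties going to the higher share. Merging, classes and distances were tested on simulated data. Alternatives were merging within 200 bp, peaks of at least 300 or 500 bp, equal numbers (72521) of widest peaks, no Pachon peak within 1000 bp, a reciprocal overlap of 50% of the holding lists, and members with 1 peak of each list. Wilson 95% intervals cover counting error only. Scripts ran under Python 3.11.15 with scipy 1.17.1, pandas 2.3.3 and numpy 2.4.6.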

Additional observations from a re-analysis of the deposited data

How the results depend on the processing

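Across 7 alternatives, 46 of 57 values stayed within the limits set for a change, which were 1.5 times for counts, ratios, widths and gaps, 0.1 with no change of sign for the log2 ratio and the counting interval for the share. A count within its limit does not mean that the same regions were members. With peaks of at least 300 bp, members numbered 4341. Of that number, 2857 were members in the full lists and 1484 were in regions of all 3 forms there. With peaks of at least 500 bp only, members numbered 2987, with medians of 688 bp in Surface and 639 bp in Tinaja and a gap of 8331 bp to Pachon. Of these, 747 were members in the full lists and 2240 were in regions of all 3 forms there. With equal numbers of widest peaks, 3638 regions were members, all of them members in the full lists, the ratio to regions missing from Tinaja was 0.814 and the median log2 ratio of Tinaja over Surface width was 0.0193. The number kept in that setting, 72521, is the full length of the Pachon list, so no Pachon peak was removed, while the Tinaja list had 84653 peaks and the Surface list 73380. Members could thus be lost but hardly gained, and the full retention follows largely from the setting. The lower ratio to regions missing from Tinaja is likewise favoured by it, and what else contributed was not tested. The share lacking Pachon was 13.8% with peaks of at least 300 bp, 15.3% with peaks of at least 500 bp, 10.6% with equal numbers of widest peaks, 11.1% with no Pachon peak within 1000 bp and 11.7% with a reciprocal overlap of 50%. No paired analysis was possible because each form has 1 list with no values per replicate, and no replicate could be left out. Unknown read depth limits every statement on absence: a region without a Pachon peak may hold Pachon fragments below the calling threshold.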
